A study of Mus musculus with 12 samples.

Results

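Multipotent progenitors (MPP) sorted from mouse fetal liver at E13.5 were compared between fetuses labelled as Setdb1 mutants and controls, which takes 6 of the 12 RNA sequencing libraries of the study, 3 in each group. The other 6 libraries are of long-term haematopoietic stem cells (LT-HSC), 3 in each group. They served where the change in MPP was set against that in LT-HSC and in joint fits of the MPP comparison. MPP were taken as LSK cells, an early blood progenitor gate, that were CD150- and CD48+. The 3 mutant libraries carry the genotype Setdb1 p/p;vav-cre. Controls 1 and 2 are Setdb1 +/p;+/+ and so carry no Cre, and control 3 is Setdb1 +/p;vav-cre. So every library of the comparison carries at least 1 p allele, which the labels do not define. All 3 mutants differ from controls 1 and 2 by Cre as well as by Setdb1 genotype, which these 2 controls cannot tell apart. In LT-HSC, control 1 is Setdb1 +/p;+/+, controls 2 and 3 are Setdb1 +/p;vav-cre, and the 3 mutants are Setdb1 p/p;vav-cre. The vav-cre transgene drives the Cre recombinase in blood cells. Red cells had been lysed and cells with lineage markers depleted before sorting, and each MPP library came from about 20000 sorted cells and 10 ng of RNA. LT-HSC libraries came from fewer sorted cells and the same 10 ng. Whether the 3 libraries of a group came from separate animals is not stated. Markers of sex, given below, differ within each MPP group, so neither came from 1 animal, but libraries of the same sex may share an animal. The p-values therefore measure the spread between these samples only, part of which may be technical.

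Setdb1 encodes an enzyme that methylates lysine 9 of histone H3, a mark of silent chromatin. It is brought to its targets by Trim28 and by zinc finger proteins of the KRAB family, is held stable by Atf7ip, and works beside the HUSH complex, which spreads the same mark. In other mouse cells it is known for keeping germline genes, endogenous retroviruses and clustered gene families silent. MPP are the dividing progenitors between the stem cell and the lymphoid, myeloid and red cell lineages, and in fetal liver at this age most of their output is red cells.

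The libraries held 11586028 to 13282446 counts, with 14881 to 15222 genes above 0. Levels are given as CPM, counts put on a common library size with TMM scaling, always in the order of replicates 1, 2 and 3, and fold changes are on the log2 scale, mutant over control. Replicates differed by more than sampling noise (chi-square per gene 4.94 to 20.3), so none looked like 1 library deposited again. The first principal component carried 78.0% of the variance and separated the genotypes, with mutant 1 nearest to the controls (0.30, against 0.49 and 0.42 for mutants 2 and 3, and -0.42 to -0.38 for the controls). Rn45s, from which ribosomal RNA is cut, held 0.656% to 0.88% of each control's counts and 1.06% to 1.16% of each mutant's, and the part of this shift in the results was not tested. Markers of sex placed control 3 and mutant 2 as male, 1 library in each group. Control 3 is also the only control with Cre, so among the controls sex and Cre cannot be told apart. Kit, which the gate selects, held 954, 865 and 779 CPM in the control libraries against 842, 845 and 825 CPM in mutants, and Slamf1, the gene of CD150, held 1.02 to 2.30 CPM in all 6. Cd48 was lower in the mutants (249, 212 and 194 against 183, 159 and 141 CPM, a call lost without mutant 2 or mutant 3), as was Ly6a, the gene of the Sca-1 protein that the gate also uses (29.9, 33.8 and 25 against 16, 13.3 and 12.9 CPM). Cd3e, a T cell gene, had 0 counts in every library.

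Setdb1 itself (GRCm38 chr3:95323525-95357202) held 135, 91.3 and 83.6 CPM in the control libraries against 82.3, 109.6 and 92.9 CPM in mutants. The groups overlapped, and the log2 fold change of -0.12 (SE 0.167) did not pass edgeR's quasi-likelihood test (adjusted p = 0.598). Its sign rested on control 1: without that library the log2 fold change was 0.1179, and against the Cre-positive control 3 alone 0.1384. Counts are summed over the whole gene, so they do not check a deletion of part of it. Of the 20 genes of the H3K9 methylation and HUSH list, 3 rose (15%) and 2 fell (10.0%), shares below the 16.5% and 18.5% of all genes tested, with a median of 0.00 against -0.0127. Fam208a, the scaffold subunit of HUSH, rose from 32.4, 34.7 and 29.3 to 69.4, 71.6 and 62.3 CPM, a log2 fold change of 1.08 (SE 0.109, edgeR adjusted p = 3.5e-05). Morc2a, an ATPase that acts with HUSH, rose by 0.77 (SE 0.0934), and Atf7ip by 0.49 (SE 0.166). Dnmt3a, which methylates DNA anew, fell from 258 ± 12.2 to 142 ± 25.8 CPM (SD, n = 3 each), and Uhrf1, which guides its maintenance, changed by -0.33 (SE 0.102). The call of Atf7ip was lost without any 1 of the mutants, and that of Uhrf1 without control 1, mutant 2 or mutant 3. Trim28, Ehmt1, Ehmt2, Suv39h1 and Dnmt1 had log2 fold changes between -0.13 and 0.02 and did not pass.

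Of 12392 genes tested, 4337 passed edgeR's quasi-likelihood test at an adjusted p under 0.05 (35.0%), 2039 higher (16.5%) and 2298 lower (18.5%) in the mutants. These shares are the background for the counts of gene groups given below. The ranges of the 3 controls and 3 mutants were apart in 50.4% of all genes tested. They were apart in 4229 of the 4337 genes that passed, so a lack of overlap adds little to a call. The larger changes leaned differently by size: 541 higher and 866 lower genes changed at least 2-fold, 177 and 286 at least 4-fold, 93 and 109 at least 8-fold, and 42 and 19 at least 32-fold. The count was 2774 without mutant 2 (1276 higher, 1498 lower) and 2867 without mutant 3 (1309 higher, 1558 lower). With control 3, the only Cre-positive control, standing for the controls in a joint fit with LT-HSC libraries, which assumes that a lone sample varies like the other groups, 125 genes passed, 47 higher and 78 lower. In the joint fit of all 12 libraries 2792 passed in MPP. A gene under the filter's level of 0.815 CPM in every library of a group passed the filter through the other group, and so had to differ. This holds for 9 of the germline genes below, all low in controls, for 5 lymphoid receptor and 3 class II genes, all low in mutants, and for at most 2 members of any other list in each group.

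**Figure D1:**
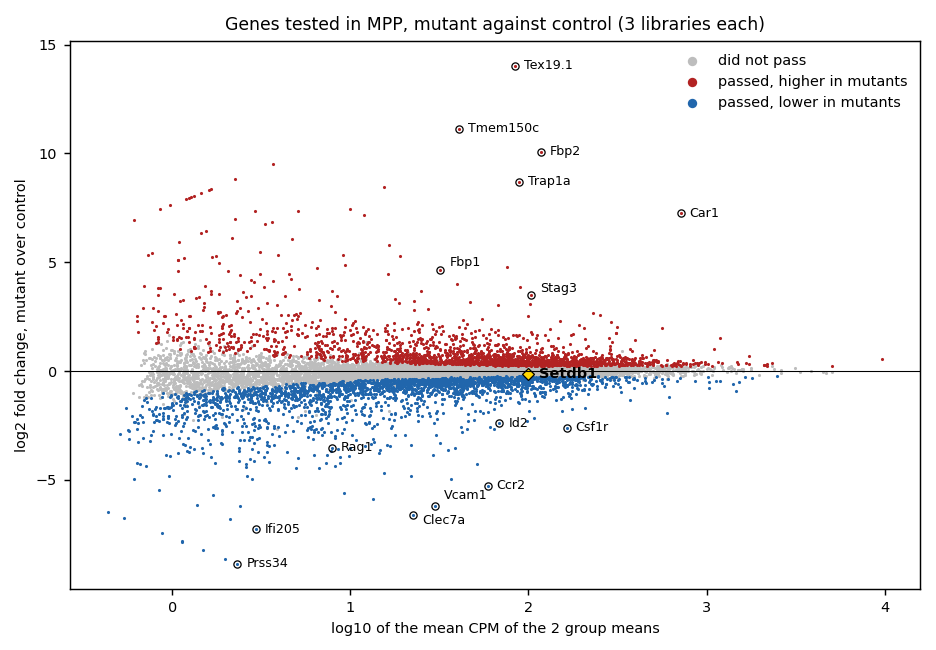
Each point is 1 of 12392 genes tested in MPP, at the log10 of the mean of its control and mutant CPM (x axis) and its log2 fold change of mutant over control (y axis), with 3 libraries a group. Red points passed higher in mutants (2039), blue points passed lower (2298), and Setdb1, the gold diamond at -0.12, lies among the genes that did not pass, while Tex19.1, Tmem150c, Fbp2, Trap1a and Car1 stand far above the rest at their levels.

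Fbp2 (GRCm38 chr13:62836884-62858400) had the smallest p of the genes that rose. It was close to silent in the controls at 0.0742, 0.159 and 0.393 CPM, and the mutants held 232, 233 and 238 CPM. Fbp2 and Fbp1 encode fructose-bisphosphatases, which run a committed step of gluconeogenesis. No mutant came near a control for Fbp2, and the mutants lay within 234 ± 2.96 CPM (SD, n = 3), a log2 fold change of 10.08 (SE 0.2, edgeR adjusted p = 1.7e-10). Its neighbour Fbp1 (GRCm38 chr13:62864753-62888298) went from 2.82, 2.15 and 2.36 to 69, 56.8 and 58.9 CPM, a log2 fold change of 4.65 (SE 0.159). Tmem150c, a membrane protein gene (GRCm38 chr5:100077872-100165607), had 1 count over the 3 controls and 81.1, 81.5 and 80.8 CPM in the mutants, or 3142 times as much, with 95% counting limits of 563 and 124000 that cover counting error only. Car1, a carbonic anhydrase of red cells, held 9.06, 9.63 and 9.52 CPM in the control libraries against 1037, 1687 and 1543 CPM in mutants, a log2 fold change of 7.24 (SE 0.198). Mutant 1 was the lowest of the mutants for Car1 and still far above every control.

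Among the other genes of the 20 higher ones with the smallest p, Ahsa2, a relative of an HSP90 activator, stood at 55.8, 65.9 and 66.3 against 424, 416 and 352 CPM. Akap5, an anchor of protein kinase A, rose by 3.66 on the log2 scale, Amotl1, a junction protein, by 7.16, Slc4a8, a bicarbonate transporter, by 3.44, and Padi3, a peptidylarginine deiminase, by 3.11. Gstp1, a glutathione transferase, rose from 226 ± 12 to 898 ± 101 CPM and Gstp2 from 5.23 ± 0.934 to 146 ± 50 CPM (SD, n = 3 each), but the copies are nearly identical and the split of their reads is uncertain. Nfxl1, Ccbl2 and Sptb, the last a spectrin of the red cell skeleton, had log2 fold changes of 2.02, 1.52 and 2.52. The remaining genes of the 20 are germline genes, described next.

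Among the 20 lower genes with the smallest p are receptors, cathepsins and factors described below. Of the others, Rnd3, a small GTPase, held 18.7, 17.2 and 18.5 CPM in the 3 controls against 0.435, 0.255 and 0.397 CPM. Hpgd, which degrades prostaglandins, went from 36.9, 53.6 and 36.3 to 1.83, 1.19 and 1.43 CPM, and Plbd1, a phospholipase of myeloid granules, from 16.3, 16 and 17.9 to 0.61, 0.85 and 1.19 CPM. A lack of overlap was required of each by the rule that chose them. Ly86, a partner of a Toll-like receptor relative, had a log2 fold change of -3.85, the lectin Lgals3 -2.67, the lectin receptor Clec4a3 -3.52, and the matrix genes Postn and Fn1 -4.69 and -2.41. Of the 40 genes, 28 also passed against control 3 alone, and each of the 40 passed under every other alternative, including without any 1 library.

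**Figure D2:**
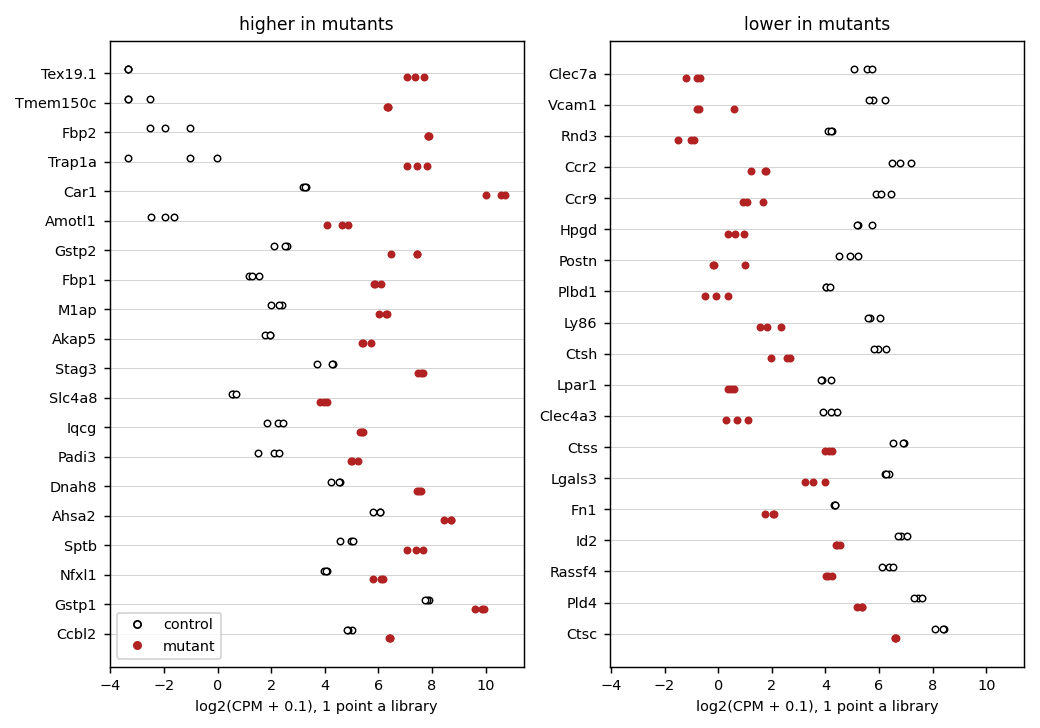
Each row is 1 of the 20 higher (left) or 19 of the 20 lower (right) genes with the smallest p, and each point 1 library at log2(CPM + 0.1), open for the 3 controls and red for the 3 mutants. The rule that chose these genes required that the groups not overlap, and the gap runs from Ctsc (-1.70) and Ccbl2 (1.52) to Tex19.1, which had 0 counts in the controls.

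Several germline genes that were silent or nearly so in the controls were present in the mutants. Of 50 members of the list in the tables, 26 were too low to be tested, 7 of them with 0 counts in all libraries. Of the 24 tested, 17 rose and 0 fell, but in 9 of the 24 no control reached the filter's level, so the filter itself favours a rise in this count and nothing is read from it. With no filter on low counts, where members too low for the main fit were tested too, 27 rose. Tex19.1, which acts in spermatocytes and placenta, had 0 counts in the controls and 133, 208 and 165 CPM in the mutants, at least 2182-fold higher when the controls together are set to 3 counts. Trap1a, an X-linked tumour antigen gene of testis and placenta, held 0, 0.876 and 0.393 CPM in the control libraries against 134, 223 and 173 CPM in mutants. Stag3, the cohesin subunit of meiosis, went from 13, 19.6 and 19 to 176, 204 and 192 CPM, and M1ap, known from male meiosis, from 5.2, 4.78 and 3.93 to 64.8, 80.5 and 78.4 CPM. The rule that named these genes required that the groups not overlap.

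Other genes of meiosis and sperm rose too. Dnah8 and Iqcg, genes of the sperm flagellum, had log2 fold changes of 3.06 (SE 0.108) and 3.21 (SE 0.162). Gm1564, also named Meioc and needed to hold cells in meiotic prophase, had 3 counts over the controls and 10.9, 43.2 and 37.9 CPM in the mutants, a ratio of 400.2 (95% counting interval 137 to 1940). Mutant 1 was the lowest mutant for Gm1564, and likewise for Tex15, a gene of meiotic repair and retrotransposon silencing, with 3.13, 27.4 and 23.1 CPM against 0.297, 0.637 and 0.393 CPM in the controls. Dmc1 and Spo11, which make and repair the breaks of meiosis, rose by 2.6 and 1.58 (the call of Spo11 was lost without mutant 2), Tdrd9 and Tdrd5 of the piRNA pathway by 3.82 and 3.67, and Dazl, an RNA-binding protein of germ cells, by 2.54. Of the 24 tested members, 7 did not pass: Ddx4, a helicase of germ cells, stood at 35, 24.1 and 36.3 CPM against 31.4, 54.9 and 33.4 CPM, Piwil2 at 3.93, 3.1 and 3.07 against 3.92, 2.98 and 3.5 CPM, and these are among the 7. The summed level of the 50 genes was 218, 235 and 245 CPM in controls and 948, 1327 and 1150 CPM in mutants. Against control 3 alone, 6 members passed.

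Promoters of germline genes are known to carry the E-box CACGTG, bound by MAX with its partner MGA, and GGCGGGA, a site of E2F proteins, which recruit a silencing complex of the Polycomb kind. RefSeq windows of 250 bases before to 50 after a start (GRCm38.p6) were searched on both strands. CACGTG was in 19 of 52 windows of the list (36.5%) against 7.15% of all 32851 windows, but in 3 of 15 windows of called members. GGCGGGA was in 21.2% of the windows of the list against 11.3% of all. A pair of called members is shown because each holds a motif, with the match in capitals, 5′ to 3′ along the gene: Stag3 (GRCm38.p6 chr5:138280259-138280558, plus strand) with CACGTG beginning 170 bases before the start, and M1ap (GRCm38.p6 chr6:82946672-82946971, plus strand) with GGCGGGA beginning 89 bases before it. A match describes the letters and does not show a bound site.
Stag3: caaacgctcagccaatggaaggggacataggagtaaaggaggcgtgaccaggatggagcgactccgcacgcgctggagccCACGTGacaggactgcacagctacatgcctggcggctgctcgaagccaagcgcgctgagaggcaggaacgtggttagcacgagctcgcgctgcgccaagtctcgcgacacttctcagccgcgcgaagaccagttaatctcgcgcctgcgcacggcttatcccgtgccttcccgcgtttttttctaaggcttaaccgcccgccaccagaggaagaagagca
M1ap: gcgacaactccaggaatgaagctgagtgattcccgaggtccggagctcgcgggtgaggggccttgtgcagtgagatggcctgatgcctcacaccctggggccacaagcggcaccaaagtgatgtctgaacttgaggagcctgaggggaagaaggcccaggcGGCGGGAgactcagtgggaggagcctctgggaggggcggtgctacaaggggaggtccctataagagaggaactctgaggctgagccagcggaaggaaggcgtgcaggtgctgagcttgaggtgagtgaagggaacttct

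Red cell genes rose across their roles. Of 16 erythroid transcription factors, 7 rose and Cbfa2t3 fell by 0.30 (median 0.16), and the call of Cbfa2t3 was lost without control 2, control 3, mutant 2 or mutant 3. Of 23 genes of haem synthesis and iron, 18 rose and 1 fell (median 1.02), and of 24 genes of the red cell membrane and surface, 21 rose and 1 fell (median 1.59). The background is 16.5% of genes higher. The samples are bulk, so a larger share of cells of a type and more RNA per cell cannot be told apart. Against control 3 alone the medians of the last 2 lists were 1.02 and 1.64, with 0 and 1 members called.

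Klf1, the erythroid Krüppel-like factor, held 76.4, 87.4 and 89 CPM in the control libraries against 201, 279 and 309.6 CPM in mutants (log2 fold change 1.64, SE 0.146, edgeR adjusted p = 1.71e-05). Gata1, its upstream factor, went from 59.6 ± 11.7 to 189 ± 43.3 CPM (SD, n = 3 each), and its partner Zfpm1 (FOG1) rose by 1.42. The groups did not overlap in these genes. Sox6 rose by 1.69 and Tal1 by 0.72. Gata2, Lmo2, Ldb1, Myb and Bcl11a, which are also part of the erythroid network, had log2 fold changes between -0.13 and 0.31 and did not pass.

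The haem pathway rose at nearly every step. Alas2, the entry enzyme of red cells, held 8.39, 4.62 and 12.7 CPM in the control libraries against 16.9, 27 and 25.6 CPM in mutants, while its housekeeping counterpart Alas1 held 114, 92.7 and 90.7 against 94.7, 89.9 and 114 CPM and did not pass. The later enzymes Alad, Uros, Urod, Cpox, Ppox and Fech rose by 1.35, 1.27, 0.57, 1.73, 0.68 and 1.98. Tfrc, the transferrin receptor, went from 212, 173 and 148 to 331, 461 and 389 CPM. Hmox1, which breaks haem down and is high in macrophages, was the member that fell, from 162, 128 and 99.2 to 49.1, 30.9 and 59.8 CPM.

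At the cell surface, Epor, the erythropoietin receptor, went from 39.3, 49.4 and 38.9 to 99.9, 151 and 154 CPM. The spectrin Sptb, ankyrin Ank1 and protein 4.2 (Epb4.2) rose by 2.52, 1.93 and 2.14. In every one of these genes mutant 1 was the lowest mutant and lay above the highest control. Cd36, the fatty acid receptor that macrophages and endothelium share with red cell precursors, fell by 3.72. Of 8 tested globins and their chaperone, 4 rose (median 0.61), 2 by DESeq2 and 1 in the joint fit of 12 libraries. Hba-a2 stood at 493, 268 and 1084 CPM in controls, with control 3 nearly at the level of mutant 1, and 1270, 2149 and 1849 CPM in mutants. Its call was lost without control 1. Hbb-b2 and Hbb-bt held identical values, and their calls were lost by DESeq2 and without any library other than control 3. The embryonic globins Hbb-y (2.15, 11.7 and 0.944 against 2.09, 1.28 and 2.15 CPM) and Hba-x did not pass. Among carbonic anhydrases, Car1 and Car2 rose, and Car12, Car9 and Car3 fell, with log2 fold changes of -0.85, -0.43 and -1.06. The call of Car9 was lost without control 2, control 3, mutant 2 or mutant 3, and that of Car3 without control 1, control 3, mutant 2 or mutant 3.

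GATA factors bind AGATAA, which was in 5 of 21 promoter windows of the red cell membrane list (23.8%), 11.5% of the haem list and 12.5% of the factor list, against 11.2% of all windows. CCACACCC, a site of Klf1, was in 0.0% of the windows of the membrane and haem lists, 4.17% of the factor list (1 window of 24) and 16.7% of the globin list (1 window of 6), against 3.56% of all. Epb4.2 (GRCm38.p6 chr2:121036828-121037127, minus strand) and Epor (GRCm38.p6 chr9:21963527-21963826, minus strand) are shown because they are called members with a match. Each is printed 5′ to 3′ along the gene, and the capitals mark AGATAA read on the other strand, beginning 226 and 54 bases before the start.
Epb4.2: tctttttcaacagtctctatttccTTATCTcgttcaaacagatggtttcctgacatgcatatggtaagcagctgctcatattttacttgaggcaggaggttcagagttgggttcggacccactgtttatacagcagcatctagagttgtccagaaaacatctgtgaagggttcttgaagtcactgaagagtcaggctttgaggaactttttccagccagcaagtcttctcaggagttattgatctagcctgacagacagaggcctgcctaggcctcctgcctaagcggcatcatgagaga
Epor: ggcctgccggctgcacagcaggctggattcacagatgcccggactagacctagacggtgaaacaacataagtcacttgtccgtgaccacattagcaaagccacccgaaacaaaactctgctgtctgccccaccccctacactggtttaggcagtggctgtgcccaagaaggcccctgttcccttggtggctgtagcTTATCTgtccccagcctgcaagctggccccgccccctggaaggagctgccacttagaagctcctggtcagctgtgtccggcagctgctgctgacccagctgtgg

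Metabolic genes moved with these groups. Of 5 tested gluconeogenesis genes, Fbp2 and Fbp1 rose, Pck2, a mitochondrial carboxykinase, fell by 0.39, a call lost without mutant 2 or mutant 3, and Pcx and G6pc3 did not pass (0.36 and -0.05). Of 23 glycolysis genes, 8 rose and 1 fell (median 0.20). Pklr, the pyruvate kinase of liver and red cells, went from 58.9, 45.1 and 44.6 to 113, 181 and 187 CPM, Slc16a3, a lactate exporter, from 47.6, 41.2 and 49.7 to 118, 172 and 189 CPM, and Hk1, the hexokinase of red cells, from 263, 267 and 260.1 to 451, 556 and 497 CPM. The isoforms Pkm and Hk2 had log2 fold changes of 0.05 and 0.01 and did not pass. Ldhb fell by 0.56 while Ldha rose by 0.3, a call lost without control 2, mutant 2 or mutant 3. The metallothioneins Mt1 and Mt2, which bind zinc and are shared by liver and red cell precursors, went from 142, 114 and 115 to 383, 575 and 569 CPM and from 60.1, 47.4 and 43.6 to 177, 282 and 292 CPM.

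Among genes of growth and division, changes were small, and for some lists no more frequent than among all genes. Of 28 mitosis genes, 12 rose (42.9%, against 16.5% of all genes) and 0 fell (median 0.18), among them Ube2c (0.59) and Plk1 (0.54), and of 33 DNA replication genes, 4 rose (12.1%; Mcm2, Orc1, Rrm2 and Ccne2) and 0 fell (median 0.11). The calls of Mcm2 and Ccne2 were lost without control 2, control 3, mutant 2 or mutant 3, that of Rrm2 without control 2, mutant 2 or mutant 3 and that of Orc1 without mutant 3. Of 82 cytosolic ribosomal proteins, 30 rose (36.6%) and 0 fell (median 0.20), of 29 ribosome biogenesis genes 13 rose (44.8%) and 0 fell (median 0.24), and of 88 oxidative phosphorylation genes 19 rose (21.6%) and 3 fell (median 0.13). These counts moved with the scaling and with single libraries. With upper-quartile scaling, ribosomal proteins, biogenesis and oxidative phosphorylation had 16, 8 and 7 higher members. Without control 2, mutant 2 or mutant 3 the mitosis count was 7, 6 and 7, ribosomal proteins 13, 8 and 8, biogenesis 6, 5 and 6, and oxidative phosphorylation 6, 4 and 3, and without control 1 ribosomal proteins reached 53. A pair of ribosomal protein paralogues stood out in size: Rpl39l, known from testis, went from 0.965, 0.796 and 1.02 to 16.6, 46.4 and 48.2 CPM, and Rps4l from 70.1, 111 and 120.4 to 410.3, 516 and 523 CPM, though reads of Rps4l may be shared with copies of Rps4x.

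**Figure D3:**
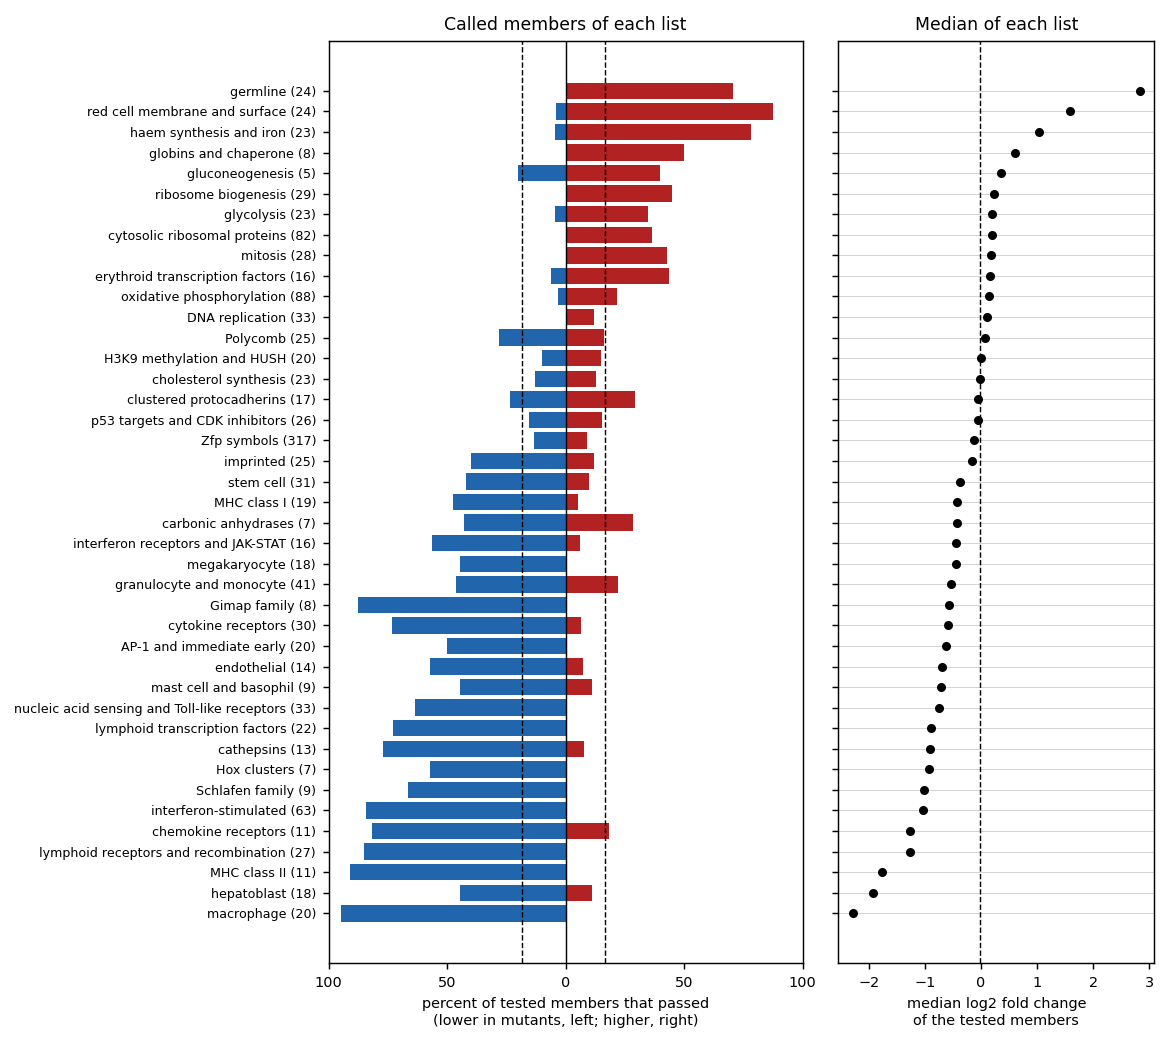
For each gene list with at least 5 tested members (number in brackets), the left panel shows the percent of members that passed higher (red, right) or lower (blue, left) in mutants, with dashed lines at the 16.5% and 18.5% of all genes, and the right panel shows the median log2 fold change with a dashed line at the median of all genes (-0.0127). Germline, red cell membrane and haem genes lie at the top with medians of 2.83, 1.59 and 1.02, and macrophage, hepatoblast and MHC class II genes at the bottom with -2.28, -1.92 and -1.76. Of the 24 germline genes, 9 were tested only because of their level in mutants, and 3 of the 11 class II genes only because of theirs in controls. The hepatoblast median was -0.986 without control 3.

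On the other side, lymphoid genes fell. Of 22 lymphoid transcription factors, 16 fell and 0 rose (median -0.90), and of 27 lymphoid receptor and recombination genes, 23 fell and 0 rose (median -1.26), against 18.5% lower among all genes. In 2 of the 22 and 5 of the 27 no mutant reached the filter's level. These passed the filter through the controls, which favours a fall in these counts. Against control 3 alone 1 member of each list passed, and the medians were -0.85 and -1.08. Ccr9, the receptor that guides progenitors to the thymus, held 87.3, 59.7 and 67.9 CPM in the control libraries against 3.05, 1.79 and 1.99 CPM in mutants (log2 fold change -4.98, SE 0.216, edgeR adjusted p = 6.47e-08). Il7r, the interleukin 7 receptor, went from 35.1, 29.5 and 16.3 to 3.13, 1.02 and 2.46 CPM, Flt3 from 387, 458 and 467 to 259.5, 191 and 231 CPM and Notch1 from 212, 235 and 199.8 to 121, 77.1 and 88.4 CPM. None of these overlapped between the groups, which the rule that named Ccr9 required.

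Factors of the B and T lineages fell too. Ebf1, which commits cells to the B lineage, fell from 8.28 ± 2.17 to 1.23 ± 0.583 CPM and Tcf7, which does so for T cells, from 4.96 ± 1.12 to 0.224 ± 0.132 CPM (SD, n = 3 each). Pou2af1, a coactivator of B cells, had 2 counts over the mutants, a ratio of 60.1 lower (95% counting interval 16.3 to 502), and Vpreb3, of the pre-B receptor, 1 count, a ratio of 60.1 (10.4 to 2410). Rag1 and Rag2, which recombine antigen receptor genes, fell, with log2 fold changes of -3.53 and -1.57. Id2, an inhibitor of E proteins that innate lymphoid cells need, fell from 112, 130.2 and 104 to 21.6, 21.1 and 23.3 CPM. Factors shared with stem and other progenitor cells, Ikzf1 (0.06), Tcf3 (0.35), Tcf12 (0.19), Foxo1 (-0.31), Gata3 (-0.29) and Hhex (-0.1), did not pass. Of 8 Gimap genes, GTPases of lymphocytes in a single cluster, 7 fell (median -0.57), and 4 did without mutant 2, without mutant 3 or in the joint fit of 12 libraries.

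Stem cell and megakaryocyte genes fell in part. Of 31 stem cell genes, 13 fell and 3 rose (Prom1, Tal1 and Ctnnal1), with a median of -0.38, and 7 fell in the joint fit of 12 libraries. The call of Ctnnal1 was lost without control 1, control 2, mutant 2 or mutant 3. Hmga2, a chromatin protein of fetal progenitors, went from 296, 274 and 243 to 96.1, 74.9 and 74.3 CPM. Hlf, Meis1 and Hoxa9, factors of stem cells, fell, with log2 fold changes of -0.56, -0.45 and -0.93, and the call of Meis1 was lost without mutant 2 or mutant 3. Mecom, Lin28b, Procr and Erg had log2 fold changes between -0.25 and 0.14 and did not pass. Of 18 megakaryocyte genes, 8 fell and 0 rose (median -0.45), 5 in that joint fit, with Thbs1 at 24.3, 43.3 and 20.4 against 2.18, 2.55 and 3.66 CPM, while the platelet glycoprotein genes Gp9, Gp1ba, Gp5 and Itga2b did not pass.

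Members of the granulocyte and monocyte list fell more often than they rose. Of 41 members, 19 fell and 9 rose (median -0.54). The share that fell was above the 18.5% of all genes, and the share that rose was only a little above the 16.5%. Ccr2, the chemokine receptor of monocytes, held 110.0, 145 and 89.5 CPM in the control libraries against 2.26, 3.32 and 3.26 CPM in mutants (log2 fold change -5.28, SE 0.219, edgeR adjusted p = 6.46e-08), and Clec7a, the beta-glucan receptor, held 46.2, 53.9 and 33.4 against 0.522, 0.34 and 0.477 CPM. Irf8, a factor of monocytes and dendritic cells, went from 90.6, 123 and 100.4 to 38.9, 29.2 and 37.8 CPM, Csf1r, the receptor that macrophages need, from 295, 308 and 239.5 to 47.3, 30.3 and 61.6 CPM, and Lyz2 from 953, 1201 and 704 to 241, 231 and 271 CPM. Klf4, a factor of monocytes, fell by 3.29. The groups did not overlap in these 6 genes, as in most genes that passed.

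A few genes of the neutrophil line rose within the same list, while other granule genes did not pass and further members fell. Those that fell include Itgam (-0.65), and Csf3r and Cybb, with changes of -0.9381 and -2.525 in MPP in the joint fit of 12 libraries. Elane, neutrophil elastase, went from 71.6, 80.1 and 78.6 to 166, 189 and 294 CPM (log2 fold change 1.5, SE 0.179, edgeR adjusted p = 0.000109), Cebpe, the factor of late granule genes, from 2.97, 2.23 and 3.93 to 11.8, 13.6 and 21.9 CPM and Ms4a3, a marker of granulocyte-monocyte progenitors, from 15.7, 13.2 and 11.6 to 25.9, 36 and 49.8 CPM. S100a8 and S100a9, which together form calprotectin, rose by 1.53 and 1.19, and Ctsg, a granule protease, by 0.92. Mpo, myeloperoxidase, stood at 2236, 2192 and 1799 CPM against 1783, 1670 and 2096 CPM and did not pass, and neither did Prtn3 (0.28), Ltf (0.52) or Ngp (0.25). Spi1 fell by 0.52, a call lost without control 2 or mutant 2, and Cebpa, which starts the myeloid programme, did not pass (-0.54). Ly6c1 rose by 4.97 from 0.102 ± 0.04 CPM, but it has a near copy, Ly6c2, which did not pass (0.61), so the split of their reads is uncertain.

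**Figure D4:**
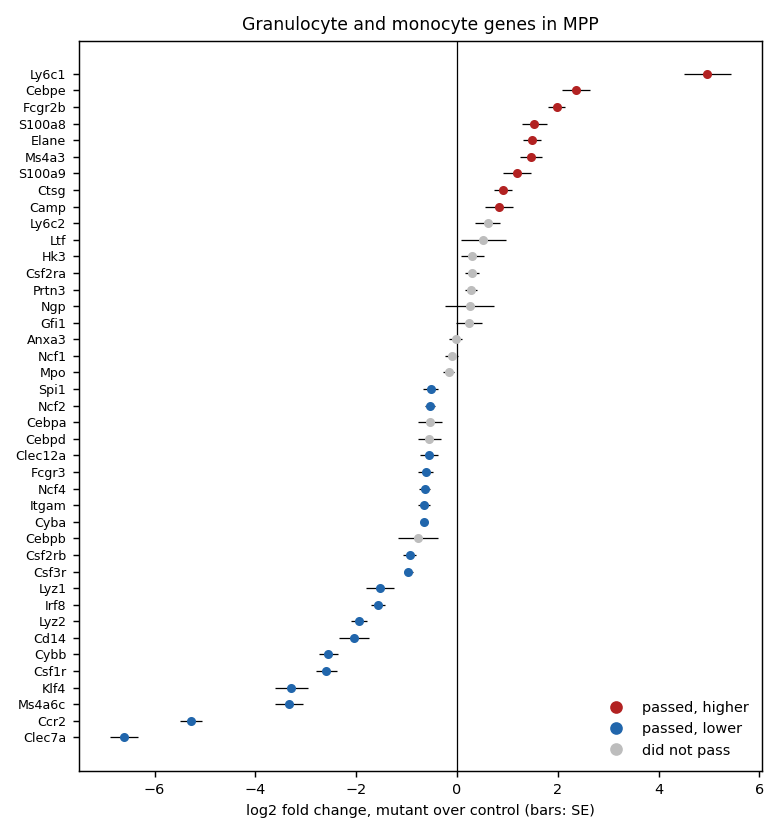
Log2 fold change of mutant over control with its SE for each of the 41 tested members of the granulocyte and monocyte list, red where higher and blue where lower among those that passed, grey where not. Cebpe (2.37), Elane (1.5) and S100a8 (1.53) lie to the right, the granule genes Mpo, Prtn3, Ltf and Ngp are among the 13 in grey, and monocyte genes such as Clec7a (-6.61), Ccr2 (-5.28) and Csf1r (-2.60) to the left.

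Fetal liver macrophages, which the gate should leave out, express several of the genes that fell. Of 20 tested macrophage markers, 19 fell and 0 rose (median -2.28), 11 in the joint fit of 12 libraries, and the summed level of the list was 2233, 1986 and 1718 CPM in controls and 771, 594 and 809.9 CPM in mutants. Vsig4, too low to be tested, held 0.594, 0.239 and 0.393 CPM in the control libraries and 0 counts in the 3 mutants, and Cd163, also untested, 0.371, 0.239 and 0.157 CPM against 0.174, 0 and 0.0795 CPM. Other defining markers kept counts in the mutants. Emr1, which encodes F4/80, stood at 90.3, 67.5 and 55.7 against 15.1, 7.99 and 12.9 CPM, Vcam1 at 74.1, 54.6 and 49.1 against 1.39, 0.51 and 0.477 CPM, Cd5l at 134, 91.5 and 69.1 against 10, 2.21 and 3.1 CPM and C1qa at 44.3, 30.6 and 36.2 against 15.8, 5.19 and 10.2 CPM. Hmox1, Ctsb and Csf1r are in this list and in others above and below. The part of macrophage RNA in the fall of monocyte, antigen presentation, cathepsin and interferon-stimulated genes was not tested.

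Markers of other liver cells were lower or uneven. Of 18 hepatoblast genes, 8 fell and 2 rose (Mt1 and Mt2), with 4 lower without control 1 or mutant 1, 3 without control 3 or mutant 3 and 16 without control 2. The median of -1.92 was -0.986 without control 3 and -3.097 against control 3 alone. Alb, albumin, held 25.3, 3.74 and 47.9 CPM in the control libraries against 4.44, 14.1 and 3.1 CPM in mutants, and Afp held 47.4, 8.99 and 87.2 against 10.4, 19.5 and 10.2 CPM, so the groups overlapped in both genes and control 2 was the lowest control. Afp passed and Alb did not, but the call of Afp was lost without control 1, control 3, mutant 1 or mutant 3. Of 14 endothelial genes, 8 fell and 1 rose, Lyve1, at 0.668, 0.478 and 0 against 10.8, 3.49 and 11.7 CPM. Of 9 mast cell and basophil genes, 4 fell, with the basophil protease Prss34 at 4.16, 7.32 and 2.44 CPM in controls and 0 counts in the mutants, at least 55.17-fold lower with the mutants together set to 3 counts, and Hdc, which makes histamine, rose by 0.45, a call lost without control 2, mutant 2 or mutant 3. Of 19 neuronal, muscle and epithelial genes only Epcam was high enough to be tested, and it rose by 3.05 to 6.95 ± 1.11 CPM (SD, n = 3), while Cdh1, another epithelial gene of the list, held 0.965, 0.557 and 1.18 CPM in the control libraries against 0.0871, 0 and 0.0795 CPM in mutants. The part of these cells in the differences was not tested.

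Most genes of antigen presentation by class II fell. Of 11 genes, 10 fell and 0 rose (median -1.76), but in 3 of the 11 no mutant reached the filter's level. These 3 passed the filter through the controls, which favours a fall in this count. Cd74, the invariant chain, held 56.9, 36.2 and 67.9 CPM in the control libraries against 6.1, 8.42 and 6.2 CPM in mutants, and H2-Aa held 7.65, 3.98 and 8.34 against 0.348, 0.17 and 0.556 CPM, while H2-Ab1 held 8.31, 7.8 and 13.8 against 7.49, 9.95 and 9.78 CPM and did not pass. Ciita, the master factor of class II, was low and fell by 3.10. Of 13 cathepsins, the lysosomal proteases, 10 fell and Ctsg rose (median -0.91), with Ctss at 121, 120.0 and 92.3 against 18.8, 15.6 and 17.4 CPM, Ctsh at 62.7, 77 and 55.9 against 6.27, 3.83 and 5.8 CPM and Ctsc at 345, 338 and 269.6 against 97.4, 96.2 and 100.0 CPM. Of 19 class I genes, 9 fell, 3 in the joint fit of 12 libraries, and H2-K1 rose by 0.41 (median -0.43), and those that fell include genes that load or cut peptides, Tap1 (-0.54), Tapbp (-0.59) and Psmb8 (-0.63). The call of H2-K1 was lost without any control or without mutant 1, and that of Tap1 without control 2, mutant 2 or mutant 3.

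Receptors for signals from outside fell more often than they rose. Of 11 chemokine receptors, 9 fell and 2 rose, and of 30 cytokine receptors, 22 fell and 2 rose (median -0.59). Il13ra1 went from 18.4, 29.8 and 18.6 to 1.57, 2.64 and 1.99 CPM and Cx3cr1 from 32.4, 36.6 and 25.1 to 4.88, 2.47 and 5.01 CPM. Those that rose were Epor, Il1rl1, the receptor of interleukin 33 (7.35, 6.37 and 3.23 against 31.4, 50.8 and 36.9 CPM), Ackr1, the chemokine receptor that red cells carry (0.965, 1.51 and 1.26 against 10.4, 15 and 10.8 CPM), and Ccrl2 (0.63), whose call was lost without control 2, mutant 2 or mutant 3.

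Most interferon-stimulated genes fell. Of 63 genes tested, 53 fell and 0 rose (median -1.04), against 18.5% lower among all genes, and 31 fell in the joint fit of 12 libraries, with a median of -1.01. The macrophage markers above fell in the same libraries, from summed levels of 2233, 1986 and 1718 to 771, 594 and 809.9 CPM. The summed level of the interferon-stimulated genes was 3677, 4334 and 2979 CPM in controls and 2227, 1794 and 1673 CPM in mutants, so control 2 was the highest, and control 3 the lowest control. Against control 3 alone 0 members passed and the median was -0.71. Ifi205, of the family of DNA sensors and chromatin proteins encoded in 1 cluster of chromosome 1, stood at 6.01, 7.16 and 4.41 CPM in controls and had 1 count over the mutants, a ratio of 209.9 lower (95% counting interval 37.3 to 8330). Its relatives Ifi204 and Mnda stood at 28.7, 34.9 and 17.5 against 2, 1.79 and 2.07 CPM and 19.4, 24.8 and 11.1 against 1.04, 1.79 and 0.874 CPM. Copies in this family share sequence, so the split of reads among them is uncertain. Irf7 went from 50.8, 73.3 and 33.3 to 18, 12.9 and 11.1 CPM, Isg15 from 16.7, 32 and 13.6 to 8.88, 7.48 and 6.75 CPM and Adar, which edits double-stranded RNA, from 156, 161 and 114 to 99.1, 85.5 and 83 CPM.

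Genes that sense and relay interferon fell in part. Of 16 interferon receptor and JAK-STAT genes, 9 fell and 1, the feedback inhibitor Cish, rose by 0.54, a call lost without control 2, mutant 1 or mutant 2 (median -0.45). Those that fell include Ifnar1, a chain of the type I receptor (106, 115 and 96.9 against 69.5, 62.6 and 64.9 CPM), Stat2 (-0.65) and Irf9 (-0.93). Of 33 genes of nucleic acid sensing and Toll-like receptors, 21 fell and 0 rose (median -0.75), 13 in the joint fit. Tlr7, Tlr8 and Tlr3, which read RNA in endosomes, fell, with log2 fold changes of -1.83, -3.68 and -2.29, and Unc93b1, which carries them there, went from 161, 188 and 165 to 79, 63.2 and 80.5 CPM. Trex1, which degrades DNA in the cytosol, went from 51.7, 61.6 and 45.2 to 23.8, 24.2 and 21.5 CPM. Ifih1 (MDA5) and Mavs, which sense and relay double-stranded RNA, had log2 fold changes of -0.46 and -0.26 and did not pass, nor did Tbk1 (-0.02) and Irf3 (-0.17). Of 9 Schlafen genes, 6 fell, with Slfn2 at 70.4, 96.5 and 55.4 against 9.93, 9.95 and 12.1 CPM.

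GAAANNGAA, the core of the element that interferon regulatory factors bind, was in 30 of 57 promoter windows of the interferon-stimulated list (52.6%), against 8.56% of all 32851 windows. The list was chosen for the response of its genes to interferon, so this share describes the list and not its fall. The windows of the neighbours Ifi205 (GRCm38.p6 chr1:174031706-174032005, minus strand) and Mnda (GRCm38.p6 chr1:173912997-173913296, minus strand) are shown, 5′ to 3′ along the gene, with matches in capitals. Ifi205 has a match on the gene's strand beginning 134 bases before the start and another, read on the opposite strand, beginning 24 bases after it, and Mnda has a match beginning 37 bases before the start.
Ifi205: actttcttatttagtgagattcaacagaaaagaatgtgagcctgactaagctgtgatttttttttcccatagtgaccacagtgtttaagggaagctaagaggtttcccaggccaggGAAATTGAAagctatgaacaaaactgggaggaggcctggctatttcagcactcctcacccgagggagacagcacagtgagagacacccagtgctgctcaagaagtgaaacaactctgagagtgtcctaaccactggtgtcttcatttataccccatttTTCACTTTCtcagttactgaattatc
Mnda: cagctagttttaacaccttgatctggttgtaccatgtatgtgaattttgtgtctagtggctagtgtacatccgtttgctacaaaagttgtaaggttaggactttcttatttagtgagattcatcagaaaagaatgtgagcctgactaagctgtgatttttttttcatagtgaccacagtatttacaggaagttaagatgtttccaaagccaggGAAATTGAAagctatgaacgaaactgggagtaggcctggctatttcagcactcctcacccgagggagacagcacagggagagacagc

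Genes that changed often had a neighbour that changed the same way. Of 177 genes called at least 4-fold higher, 85 (48.0%) had a called higher gene as the tested gene on either side, against 29.7% of all genes placed, and of 284 placed genes called at least 4-fold lower, 165 (58.1%) had a called lower neighbour, against 32.6%. Counting the next gene only, the shares were 31.6% against 16.5% and 38.0% against 18.5%. Copies of a gene often lie side by side and can share reads, and their part in these shares was not tested. Runs of at least 3 consecutive tested genes, all called and at least 2-fold changed the same way, numbered 26 lower (101 genes, the longest of 10) and 9 higher (34 genes, the longest of 7).

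The longest lower run spans GRCm38 chr1:173566280-174042936 and holds Pydc4, Pyhin1, Pydc3, AI607873, Ifi204, Mndal, Mnda, Ifi203, Ifi205 and Olfr433 (median -2.46). Aim2, which flanks the run, did not pass (0.03). At chr19:11047612-11604804, 7 consecutive genes with Ms4a7, Ms4a4c and Ms4a6c fell (median -2.36), while their relative Ms4a3, further along, rose by 1.46. Further lower runs hold the chemokines Ccl9, Ccl6, Ccl3 and Ccl4 with Wfdc17 and Wfdc18 at chr11:83572917-83711360 (median -2.53), Gbp8, Gbp9, Gbp4 and Gbp6 at chr5:105012513-105295871 (-2.52, with the call of Gbp6 lost without control 2 or mutant 2), and Hoxa3, Hoxa5, Mira and Hoxa7 at chr6:52169059-52218573 (-1.04).

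Higher runs were fewer. At chr4:145789515-147642508, 7 consecutive genes rose, Znf41-ps, 2610305D13Rik and others with placeholder names (median 1.27), and beside Fbp2 and Fbp1 on chromosome 13 lie Zfp808 (1.52), Zfp934 (0.89) and 6720489N17Rik (1.45), which rose as well, Zfp935 (0.4), which did not pass, and Gm5141, next to Fbp2 (-0.07, not called). Of all 317 tested genes with Zfp symbols, 28 rose and 42 fell (median -0.13), shares below the 16.5% and 18.5% of all genes, and 26, 22 and 22 fell without control 2, mutant 2 or mutant 3 and 24 in the joint fit of 12 libraries. The alpha globins Hba-a1, Hbq1b and Hba-a2 form a higher run of 3 at chr11:32283672-32297310.

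**Figure D5:**
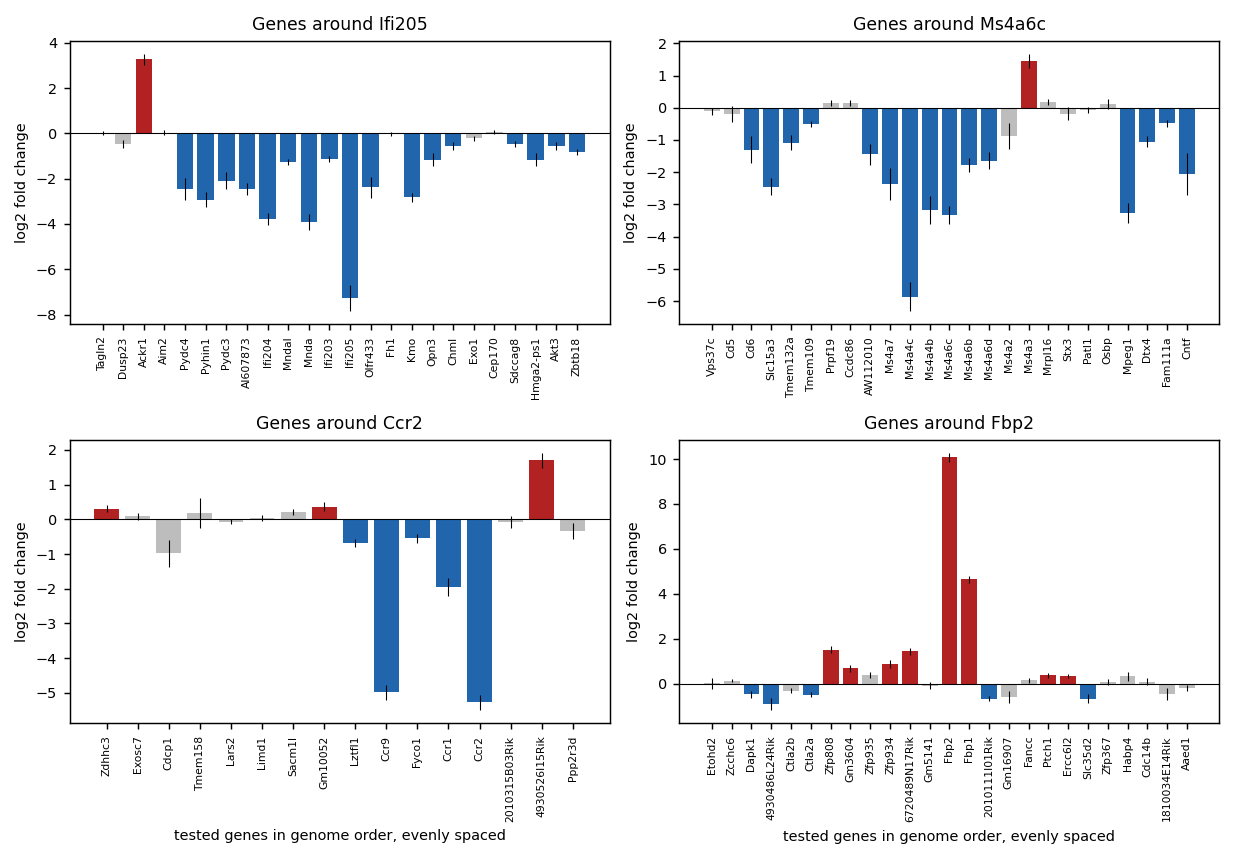
Log2 fold change of mutant over control with its SE for tested genes in genome order, evenly spaced and with those not reported here left out, around Ifi205, Ms4a6c, Ccr2 and Fbp2, with red and blue for genes that passed higher or lower and grey for the rest. Runs of lower genes reach down to Ifi205 (-7.27), Ms4a4c (-5.86) and Ccr2 (-5.28) and the first 2 of these runs stop at Aim2 (0.03) and Ms4a2 (-0.87), which did not pass, and Fbp2 (10.08) and Fbp1 (4.65) stand near zinc finger genes, of which Zfp808 (1.52) and Zfp934 (0.89) rose and Zfp935 (0.40) did not pass.

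The genotype effect was set against that in LT-HSC with an interaction term over all 12 libraries. LT-HSC libraries came from fewer sorted cells and more of their controls carry Cre, and the part of these in the differences was not tested. Of 13249 genes tested, 50 differed in edgeR's quasi-likelihood test (0.377%), 20 with a higher and 30 with a lower change in MPP, and 48 of these had passed in MPP. Of the 40 genes with the smallest p, 7 differed, and for the other 33 a difference was not shown, which does not show that they change alike. Lpar1, a receptor of lysophosphatidic acid, stood at 18.5, 14.5 and 14.2 against 1.39, 1.28 and 1.19 CPM in MPP, and in LT-HSC at 4.2, 6.08 and 5.53 against 4.12, 3.48 and 2.36 CPM. The count of 50 hung on single libraries: it was 1 without MPP mutant 2, 4, 5, 7 and 14 without MPP mutant 3, control 2, control 1 and control 3, 10 to 17 without any LT-HSC control or LT-HSC mutant 1, and 885 without LT-HSC mutant 3. With no filter on low counts it was 87, and 1637 genes had an unadjusted p under 0.05.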

How the data were processed

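RNA was made into libraries with the SMARTer ultra low input kit, per the labels' protocols, which does not mark strand, so genes that overlap on opposite strands cannot be told apart. STAR, RSEM and mm10 are named in the submitters' processing notes, with no version or setting in the sources used here. The authors deposited, per sample, a table of 24054 genes with RSEM's expected counts, which share reads that fit several genes or transcripts by estimate, beside TPM, which the authors' tables scale for transcript length and which entered no result, and the abundance-weighted transcript length. Between 7.13% and 7.76% of expected counts were fractional, and all were rounded to whole numbers. Genes were matched to RefSeq annotation of GRCm38.p6, the assembly that mm10 names, for 23951 symbols.

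Genes were kept by edgeR's filterByExpr (minimum count 10, minimum total 15) and scaled by TMM within the 6 MPP libraries, and edgeR 4.0.16 in R 4.3.3 fitted a quasi-likelihood model with genotype as its only term and Benjamini-Hochberg adjustment over 12392 genes at 0.05. The difference from LT-HSC was an interaction term over 12 libraries. Samples were grouped by titles and genotypes in the labels, and replicates are numbered as in the titles. Mean and SD are of CPM over 3 libraries. A design of 3 against 3 cannot go below 0.1 in a two-sided exact permutation test, so none was used for single genes. The model was tested on simulated data for the MPP comparison with 12280 genes. It recovered 87% of 100 genes changed by 1 on the log2 scale and 95% of 100 changed by 2. Among called genes 8.08% were false, above the adjusted p threshold of 0.05. The simulation changed 200 genes in all, while 35.0% of genes passed in the data, so these shares may not hold there. Alternatives were DESeq2 1.42.0, upper-quartile scaling, no filter, a joint fit of 12 libraries, sex as a covariate, the Cre-positive control alone, the replicate number as a block, and leaving out each library. The Cre-positive control is also the only male control, so the alternatives for sex and for Cre are not separate checks.

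The comparison and the 43 gene lists were chosen with earlier results of these data known. Genes were named by rule: Setdb1, then, in each direction, the 20 genes lowest in p that were called, changed by 1 or more on the log2 scale, had groups without overlap and averaged 10 CPM or more where higher, then per list the called members lowest in p, up to 5, and the promoters of up to 2 called members with a list's motif. Other genes were named for their role after their values were seen. List members that were low in all libraries were not tested. Some genes that these rules name are not reported here.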

Additional observations from a re-analysis of the deposited data

Results flagged for a closer look

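The genotype effect in MPP differed from that in LT-HSC, by edgeR's interaction term over 12 libraries, for 15 of the 215 genes named by rule. Values are the log2 fold change in MPP minus that in LT-HSC. Ahsa2 alone kept its call in all 12 fits that left out 1 library. Lpar1 lost it without MPP mutant 2 or mutant 3 (edgeR adjusted p of up to 0.0558), Hmga2 in 5 of the 12 fits, and each of the other 12 genes in 7 to 11, with adjusted p of up to 0.171. With the replicate number as a block 9 of the 15 lost the call (Ctsh, Id2, Irf5, Lsp1, Lyve1, Ms4a6c, Rassf4, Trex1 and Unc93b1), at adjusted p of 0.0506 to 0.0646. The sign held in each of these fits.

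Some genes of innate immunity fell in MPP with a smaller or no fall in LT-HSC. The difference was -3.421 (SE 0.63) for Ms4a6c, a membrane protein of monocytes, which fell by 3.308 in MPP and changed by 0.1135 in LT-HSC, where mutants were uneven at 7.38, 19.7 and 4.79 CPM against 7.79, 10.7 and 9.66 CPM in controls. LT-HSC mutant 2 was likewise the high one for Csf1r (7.9, 186 and 15.7 CPM) and Emr1 (2.92, 78.6 and 14.1 CPM), and the part of macrophage RNA was not tested. The difference was -2.814 (SE 0.425) for Slfn2, of the Schlafen family, and -1.787 (SE 0.289) for Irf5, a factor downstream of Toll-like receptors, with LT-HSC changes of 0.04484 and -0.07326. Unc93b1 differed by -1.017, Trex1 by -1.003 and Pld4, a nuclease of endosomes, by -1.807, with LT-HSC changes of -0.1643, -0.1596 and -0.3129. Ctsh, a cathepsin, differed by -2.216 and held 53.3 ± 7.46 CPM in LT-HSC controls against 21.3 ± 9.26 CPM in LT-HSC mutants (SD, n = 3 each), a change of -1.377.

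Genes of other roles also fell further in MPP. Id2 differed by -1.738 (SE 0.277), Hmga2 by -1.135 (SE 0.157), Rassf4, a RAS effector relative, by -1.854 (SE 0.32), Lpar1 by -2.871 (SE 0.362), Postn, a matrix protein, by -3.153 (SE 0.499) and Lsp1, which binds actin in leukocytes, by -1.03 (SE 0.186).

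Ahsa2 rose further in MPP, differing by 1.897 (SE 0.14, edgeR adjusted p = 0.000165), with changes of 2.69 in MPP and 0.7929 in LT-HSC. Lyve1, a hyaluronan receptor of liver endothelium and macrophages, differed by 7.016 (SE 1.24), at 4.484 in MPP and -2.532 in LT-HSC, where it held 0.689, 0.693 and 1.79 CPM in controls against 0, 0.316 and 0.236 CPM in mutants.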

How the results depend on the processing

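The count of 4337 called genes (2039 higher, 2298 lower) was 4222 by DESeq2 (52.8% of them higher, against 47.0%), 4346 with upper-quartile scaling (37.4% higher, median of all genes -0.0737), 4533 with no filter and 4034 with sex as a covariate. It fell to 2792 in the joint fit of 12 libraries (1353 lower) and to 125 against the Cre-positive control alone (47 higher, 78 lower), of which 123 had also passed against all 3 controls. Leaving out 1 library gave 2774 to 4756 calls, 1276 to 2374 higher and 1498 to 2382 lower, and moved the LT-HSC difference of 50 genes between 1 and 885, with 87 under no filter. The Setdb1 change reversed to 0.1384 against the Cre-positive control and to 0.1179 without control 1, within -0.2431 to 0.1179 over left-out libraries. The cause of these shifts was not tested.

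The replicate number as a block gave 3765 calls (1781 higher, 1984 lower) and 24 genes in the LT-HSC difference. Same-numbered controls and mutants correlated at -0.0743, -0.176 and -0.121 in their deviations from the group mean, and the other pairs at 0.0184 to 0.119. Deviations from a mean of 3 libraries are tied to each other. These values therefore cannot show whether same-numbered libraries share an origin.

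Counts of list members moved by over 1.5 times in these settings. The joint fit of 12 libraries moved 15 of 43 lists: interferon-stimulated genes to 31 lower, macrophage 11, nucleic acid sensing 13, MHC class I 3, stem cell 7, megakaryocyte 5, Gimap 4, Zfp 24, hepatoblast 3, Polycomb 2, carbonic anhydrases 1 and, higher, protocadherins 3, globins 1, DNA replication 2 and p53 targets 2. The block gave 19 ribosomal proteins, 11 oxidative phosphorylation and 2 DNA replication genes higher, and 4 hepatoblast, 4 Polycomb and 1 carbonic anhydrase genes lower. With no filter, 27 germline members were higher and 15 hepatoblast members lower. With upper-quartile scaling, 16 ribosomal proteins, 8 biogenesis, 7 oxidative phosphorylation genes and 2 globins were higher. DESeq2 gave 2 globins and 1 carbonic anhydrase, and sex as a covariate 15 hepatoblast and 10 oxidative phosphorylation genes. Each fit without 1 library tested more genes (12556 to 12659, against 12392), so members untested in the main fit can add to its counts. Over left-out libraries the counts ran from 16 to 25 for germline, 3 to 5 for protocadherins, 22 to 50 for lower Zfp genes, 1 to 5 for globins, 1 to 3 for carbonic anhydrases, 4 to 8 for Gimap, 3 to 16 for hepatoblast, 2 to 5 for p53 targets, 6 to 13 for mitosis, 0 to 8 for DNA replication, 8 to 53 for ribosomal proteins, 5 to 16 for biogenesis, 3 to 22 for oxidative phosphorylation and 2 to 6 for lower Polycomb genes. The Cre-positive control alone moved 41 of the 43 lists. Against the Cre-positive control, 50 of the 215 genes named by rule kept their call, 164 lost it with the same sign and Setdb1 reversed. Of 51 genes named for their role that had not passed, 14 did without 1 library: Brdt, Cebpa, Foxo1, Ldb1, Rps4x and Trim28 without control 1, Alb without control 2 or mutant 2, Gata2, Hbb-y, Ifih1 and Tcf3 without control 3, and Ly6c2, Pcx and Prtn3 without mutant 1.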

Other observations

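Several gene families with known chromatin control held members that rose and members that fell. Of 25 tested imprinted genes, 10 fell and 3 rose (Grb10, Snrpn and Mcts2). The share that rose was below the 16.5% of all genes, and the share that fell was above the 18.5%. Igf2, a fetal growth factor, held 7.65, 4.7 and 18.1 CPM in the control libraries against 2.09, 2.04 and 0.954 CPM in mutants, and H19, the RNA beside it, held 23.2, 15.7 and 30.3 against 4.44, 5.02 and 2.46 CPM. Both were highest in control 3 and lowest in control 2 among controls, as were the hepatoblast genes Alb (25.3, 3.74 and 47.9 CPM) and Afp (47.4, 8.99 and 87.2 CPM), and the part of hepatoblast RNA in their fall was not tested. Dlk1, also a hepatoblast gene, and Meg3 share a domain of chromosome 12 and fell, with log2 fold changes of -3.53 and -2.63. Grb10, an adaptor that restrains growth, rose by 0.63 and Snrpn by 0.57, the latter call lost without control 1, control 2, mutant 2 or mutant 3. Of 17 tested clustered protocadherins, surface proteins of neurons known as Setdb1 targets elsewhere, 5 rose (29.4%) and 4 fell (23.5%), with a median of -0.05. The higher count was 3 without control 2, without mutant 3 or in the joint fit of 12 libraries. Pcdhga6 had 2 counts over the mutants, lower by a ratio of 21.73 (95% counting interval 5.69 to 185).

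Of 25 Polycomb genes, 7 fell (28.0%) and 4 rose (16.0%; Suz12, Ring1, Pcgf6 and Mga), against 18.5% lower and 16.5% higher among all genes. The call of Ring1 was lost without control 1, control 2 or mutant 3, that of Suz12 without mutant 2 or mutant 3 and that of Pcgf6 without mutant 3. Pcgf2 fell from 2.06 ± 0.384 to 0.614 ± 0.0206 CPM (SD, n = 3 each), while Pcgf6 and Mga, subunits of the complex that binds germline promoters, rose by 0.41 and 0.43. The lower count was 2 without control 2, mutant 2 or mutant 3 or in the joint fit of 12 libraries, and 3 without control 3. Of 20 tested AP-1 and immediate early genes, 10 fell and 0 rose (median -0.62), with Fos at 7.79, 11.5 and 8.1 CPM against 2, 2.55 and 3.1 CPM and Jun at 24.8, 29.9 and 36.5 against 11.8, 10.5 and 11.1 CPM. These genes also respond to handling of cells, whose part was not tested. Of 26 p53 targets and cell cycle inhibitors, 4 rose (15.4%) and 4 fell (15.4%), shares below those of all genes, 16.5% and 18.5%, with 2 higher without mutant 2, without mutant 3 or in the joint fit of 12 libraries.

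By chromosome, the X held 426 tested genes, of which 11.0% were higher and 26.8% lower, against 16.5% and 18.5% of all genes, and chromosome 7 had 11.5% higher and 21.0% lower. Chromosome 18 had 25.2% higher and 14.1% lower, and the lower share was 23.9% on chromosome 1 and 23.3% on chromosome 6. No test was made of these shares. Each group held 1 male library. Among 3544 genes with several transcripts, 457 had no overlap of groups in abundance-weighted length, and 3 of these, Bcl2l15, Brdt and Slc1a2, differed by at least 1.5 times in mean length.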
